A study of Mus musculus with 9 samples.

Results

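The genes described are 156 microRNA genes whose probe sets gave a signal above the middle of the array in cultured mouse Th17 cells. A microRNA gene here is a gene whose symbol starts with Mir and a digit. Only probe sets with a single gene symbol were used, and the probe set with the highest mean stood for its gene. The genes were chosen by their measured level: a gene was kept where its mean over all 9 arrays exceeded 7.13, the median of all deposited log2 intensities. Of 472 microRNA genes measured, 156 (33.1%) were kept and 316 lay at or below this level, while 54.9% of all 22180 genes exceeded it. None of the 5 measured host genes whose symbol ends in hg was kept (0 of 5). Mir29a, often named among T cell microRNA genes, averaged 6.59 and fell below the level, so it is described apart from the 156 genes, at the end.

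The arrays measured RNA of 3 groups with 3 arrays each. The first group carried an SRG3 deficiency (SRG3 cKO), the second a RORγt deficiency (RORγt KO), and the third was wild type (WT). SRG3, the product of Smarcc1, belongs to the core of Swi/Snf, which moves nucleosomes, and RORγt is the nuclear receptor on which Th17 differentiation depends. All 3 groups started from sorted splenic naive CD4+ T cells (CD25- CD44low CD62Lhigh), after bead depletion of B cells. The cells were grown for 60 h on plates coated with anti-CD3 and anti-CD28 (10 µg/ml each), with TGF-β1 at 1 ng/ml, IL-6 at 30 µg/ml as labelled, and anti-IL-4 and anti-IFN-γ at 2 µg/ml each. Strain, age and the Cre line behind the SRG3 deficiency are not given in the sources used here. The labels call the arrays biological replicates but name no separate animals or cultures, and p-values therefore measure only how far these arrays spread.

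A microRNA is transcribed as a long primary RNA, often within an intron of another gene or together with neighbouring microRNA genes. Drosha and Dgcr8 cut a hairpin out of it in the nucleus, Dicer1 cuts the hairpin to a short duplex, and one strand is loaded into an Argonaute protein. The loaded strand pairs with messenger RNAs mainly through its seed, bases 2 to 8 from its 5′ end, and lowers their stability and translation. In T cells, Dicer1 and several microRNA families shape the choice between helper fates. The arrays were hybridised with labelled sense cDNA of total RNA, and the sources used here do not say whether a probe set read the primary transcript, the hairpin or the mature strand. A level below is therefore the signal of a probe set for the gene, not an amount of mature microRNA.

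Sequences are shown for families that several of the 156 genes share, and for some of the genes described for their differences between genotypes. For Mir669m-1, which had the largest difference from WT, no mature sequence was matched. They are RefSeq mature sequences on GRCm38.p6, with the seed in capitals. The first set carries a seed of the miR-17 family, the next the seed of miR-15 and miR-16, and the next that of miR-181. Then come miR-1931, miR-1198 and miR-5103, whose genes are described below for their differences between genotypes. The last pair, from genes below the level, share the miR-29 seed.
mmu-miR-17-5p (Mir17, chr14:115043684-115043706, plus strand): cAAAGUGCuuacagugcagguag
mmu-miR-20b-5p (Mir20b, chrX:52742159-52742181, minus strand): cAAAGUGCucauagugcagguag
mmu-miR-106b-5p (Mir106b, chr5:138165787-138165807, minus strand): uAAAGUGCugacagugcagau
mmu-miR-15a-5p (Mir15a, chr14:61632075-61632096, minus strand): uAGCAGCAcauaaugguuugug
mmu-miR-16-5p (Mir16-1, chr14:61631936-61631957, minus strand): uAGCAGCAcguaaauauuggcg
mmu-miR-181a-5p (Mir181a-2, chr2:38852741-38852763, plus strand): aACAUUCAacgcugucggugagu
mmu-miR-181c-5p (Mir181c, chr8:84178924-84178945, minus strand): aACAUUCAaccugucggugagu
mmu-miR-181d-5p (Mir181d, chr8:84178759-84178781, minus strand): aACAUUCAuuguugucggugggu
mmu-miR-1931 (Mir1931, chr10:93162879-93162900, plus strand): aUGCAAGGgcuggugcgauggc
mmu-miR-1198-5p (Mir1198, chrX:7807142-7807163, plus strand): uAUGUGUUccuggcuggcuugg
mmu-miR-5103 (Mir5103, chr1:34433130-34433149, minus strand): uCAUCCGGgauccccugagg
mmu-miR-29a-3p (Mir29a, chr6:31062673-31062694, minus strand): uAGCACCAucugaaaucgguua
mmu-miR-29b-3p (Mir29b-1, chr6:31063025-31063047, minus strand): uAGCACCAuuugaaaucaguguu

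The 156 genes lay on most chromosomes, with 21 on chromosome 12, 15 on chromosome 2 and 12 on the X chromosome. Of them, 62 lay within a protein-coding gene on the same strand and 11 within a long noncoding RNA gene only, against 96 and 38 of the 316 other microRNA genes. The strand was known for 139 of the 156 genes and 280 of the 316. A neighbouring microRNA gene within 10 kb was found for 46 of the 156 genes and 115 of the 316. Hairpin sequences were matched for 126 of the 156 genes and 263 of the 316. Their GC content had a median of 52.2% (quartiles 45.9 and 60.4, range 31.2 to 74.8), against 46.4% (quartiles 41.9 and 52.7, range 26.2 to 67.9) in the others. Hairpin length had a median of 87 bases (range 59 to 131) against 81 bases (range 55 to 132). Since the rule used the signal, and a probe's signal depends on its base composition, these figures describe the choice and were not tested.

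**Figure D1:**
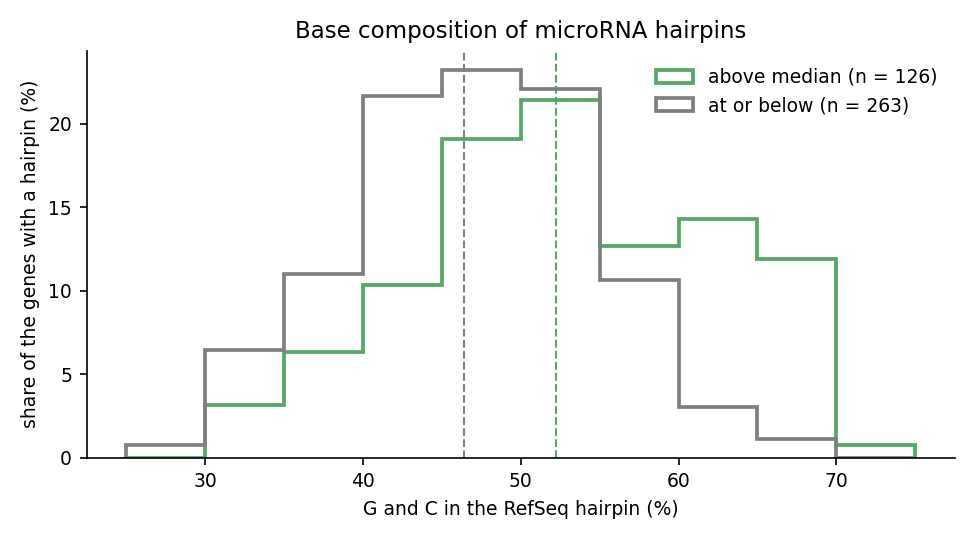
Share of hairpins (%) by GC content (%) for the 126 matched genes above the level and the 263 matched microRNA genes at or below it, with medians as dashed lines. The distribution above the level sits further to the right, with medians of 52.2% and 46.4%.

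Means over the 9 arrays ran from 7.13 to 13.56 with a median of 8.07, and 65 of the 156 genes lay above 8.23, the 75th percentile of all values. The highest mean was that of Mir5099, with 13.51, 13.62 and 13.55 in SRG3 cKO arrays, 13.45, 13.54 and 13.52 in RORγt KO arrays, and 13.60, 13.66 and 13.58 in WT arrays. The following means were 12.53 for Mir449b, 11.78 for Mir703, 10.63 for Mir1195, 10.39 for Mir1954 and 10.24 for Mir5104. Mir5125, Mir467c, Mir1956 and Mir467e had 10.18, 10.18, 10.14 and 10.14. Probe sets differ in how strongly they hybridise, so these figures give no order of abundance. Just above the level stood Mir194-2 at 7.13, Mir455 at 7.14, Mir211 and Mir133b at 7.15, and Mir1962 at 7.16. Just below it stood Mir325 at 7.12, Mir128-1 at 7.11, Mir5100 at 7.09, and Mir5110 and Mir743b at 7.07. In 138 of the 156 genes every one of the 9 arrays exceeded the level, and 154 stayed above it when any single array was left out.

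Array medians were 7.12 to 7.14. All 8 T cell markers measured averaged above the level (9.60 to 11.66), as did 2 of 10 myeloid, 0 of 3 erythroid, 3 of 8 CD8 T and NK, and 6 of 7 B cell and MHC class II markers. Summed over the list, B cell markers gave 54.1 to 54.5 in SRG3 cKO, 54.7 to 55.6 in RORγt KO and 53.0 to 55.1 in WT arrays, and CD8 T and NK markers gave 55.9 to 56.0, 56.9 to 57.8 and 56.2 to 56.6. Of the CD8 T and NK list Klrd1 alone passed, higher in RORγt KO than in WT by 0.91 (adjusted p = 0.0202, kept in 5 of 9 fits with 1 array left out, up to 0.107), while the list's median difference was 0.04. Between the mutants Klrd1 was lower in SRG3 cKO by a log2 difference of -1.11 (adjusted p = 0.00505, kept in 9 of 9 such fits), with a list median of -0.08. The 10 Th17 markers summed to 85.2 to 85.8 in SRG3 cKO, 78.7 to 80.3 in RORγt KO and 89.2 to 90.9 in WT arrays. Of these, 4 fell in SRG3 cKO and 0 rose, where 0.523% of all genes passed. In RORγt KO 6 fell and 2 rose, where 1.04% passed. With 1 array left out, the SRG3 cKO call of Il17a was kept in 9 of 9 fits. Those of Il22, Il23r and Il17f were kept in 4, 2 and 1 of 9. Over all settings their adjusted p in limma was up to 0.115, 0.179 and 0.143. The part of these markers in the results below was not tested. Smarcc1 stood at 8.47, 8.79 and 8.62 in SRG3 cKO, 10.12, 10.04 and 10.19 in RORγt KO, and 10.13, 10.32 and 10.39 in WT arrays, and in SRG3 cKO it fell by 1.65 on the log2 scale. The targeted gene of the RORγt KO is not reported here, and those labels were not checked by it. Il17a, the gene of the main Th17 cytokine, had 7.04, 6.74 and 6.72 in RORγt KO against 11.14, 10.09 and 10.83 in WT arrays, and in RORγt KO it fell by 3.85 (adjusted p = 0.000143). In cultures measured as a whole, fewer cells of a type and less RNA per cell cannot be told apart.

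Comparing SRG3 cKO with WT asks what loss of the Swi/Snf subunit does to these microRNA genes. None of the 156 passed an adjusted p of 0.05 in limma's fit of all 9 arrays (0 of 156), where 0.523% of all genes did, and the lowest adjusted p was 0.104. At an unadjusted p under 0.05, 20 of the 156 stood apart, 14 higher and 6 lower, which is 12.8% against 11.2% of all genes (6.04% higher, 5.14% lower). In 27 genes (17 higher, 10 lower), or 17.3%, the arrays of both groups did not overlap, where 13.6% of all genes showed no overlap (7.04% higher, 6.56% lower). Of all genes above the level, 17.5% showed no overlap (10.3% higher, 7.18% lower). An unadjusted p under 0.05 was reached by 14.4% of them (8.93% higher, 5.47% lower), so the 156 genes stood near these shares. The median log2 difference was 0.00 over the 156 genes and -0.01 over all genes, and single differences ran from -0.27 to 0.60. Every one of the 156 intervals (95%) lay within 1 log2 unit of 0, and 145 lay within 0.5.

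The largest difference was that of Mir669m-1, a gene of the repeated microRNA cluster in an intron of Sfmbt2. It had 8.14, 7.85 and 7.76 in SRG3 cKO arrays, 7.93, 7.95 and 7.71 in RORγt KO arrays, and 7.53, 7.05 and 7.36 in WT arrays. All arrays of both mutants exceeded every WT array. The log2 difference from WT was 0.60 in SRG3 cKO (95% interval 0.31 to 0.89, adjusted p = 0.104) and 0.55 in RORγt KO (0.25 to 0.84, adjusted p = 0.105). With the replicate number as a block, the adjusted p for SRG3 cKO was 0.0437. The labels name no pairing, and the one used was read from these same arrays, so this value is no separate support.

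Mir1931 was set apart in SRG3 cKO. Its values were 8.21, 8.34 and 8.57 in SRG3 cKO, 7.79, 8.06 and 7.94 in RORγt KO, and 7.99, 8.06 and 7.87 in WT arrays. The SRG3 cKO arrays lay above all others, while RORγt KO and WT arrays overlapped. The log2 difference from WT was 0.40 (0.18 to 0.62, adjusted p = 0.152), and from RORγt KO it was 0.44 (0.22 to 0.67, adjusted p = 0.0815).

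Mir5123, in B4galt1, had 9.46, 9.52 and 9.54 in SRG3 cKO, 9.20, 9.41 and 9.41 in RORγt KO, and 8.84, 9.20 and 9.37 in WT arrays. SRG3 cKO arrays exceeded those of both other groups, by 0.37 against WT (0.11 to 0.63, adjusted p = 0.277). The host gene B4galt1, which encodes a galactosyltransferase, differed from WT by 0.35 (adjusted p = 0.289). Mir5104, in Zc3h12d, had 9.89, 10.42 and 10.58 in SRG3 cKO, 10.03, 10.73 and 10.63 in RORγt KO, and 9.59, 10.15 and 10.18 in WT arrays. Array 1 was the lowest in each group and the groups overlapped. The difference of 0.32 in SRG3 cKO had an adjusted p of 0.658 without the block and 0.0416 with it. The pairing behind the block was again read from these arrays.

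On the lower side, Mir5103 had 8.32, 8.24 and 8.28 in SRG3 cKO, 8.55, 8.45 and 8.39 in RORγt KO, and 8.62, 8.50 and 8.40 in WT arrays. The SRG3 cKO arrays lay below all 6 others. The difference from WT was -0.23 (-0.36 to -0.09, adjusted p = 0.194), and that from RORγt KO was -0.19 (adjusted p = 0.263). Mir666, in the large microRNA cluster of the imprinted Dlk1 region of chromosome 12, had 7.71, 7.46 and 7.27 in SRG3 cKO, 7.90, 7.61 and 7.87 in RORγt KO, and 7.80, 7.71 and 7.74 in WT arrays. SRG3 cKO arrays lay below the WT arrays, the highest of them only just, but overlapped those of RORγt KO, with a difference from WT of -0.27 (adjusted p = 0.39).

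**Figure D2:**
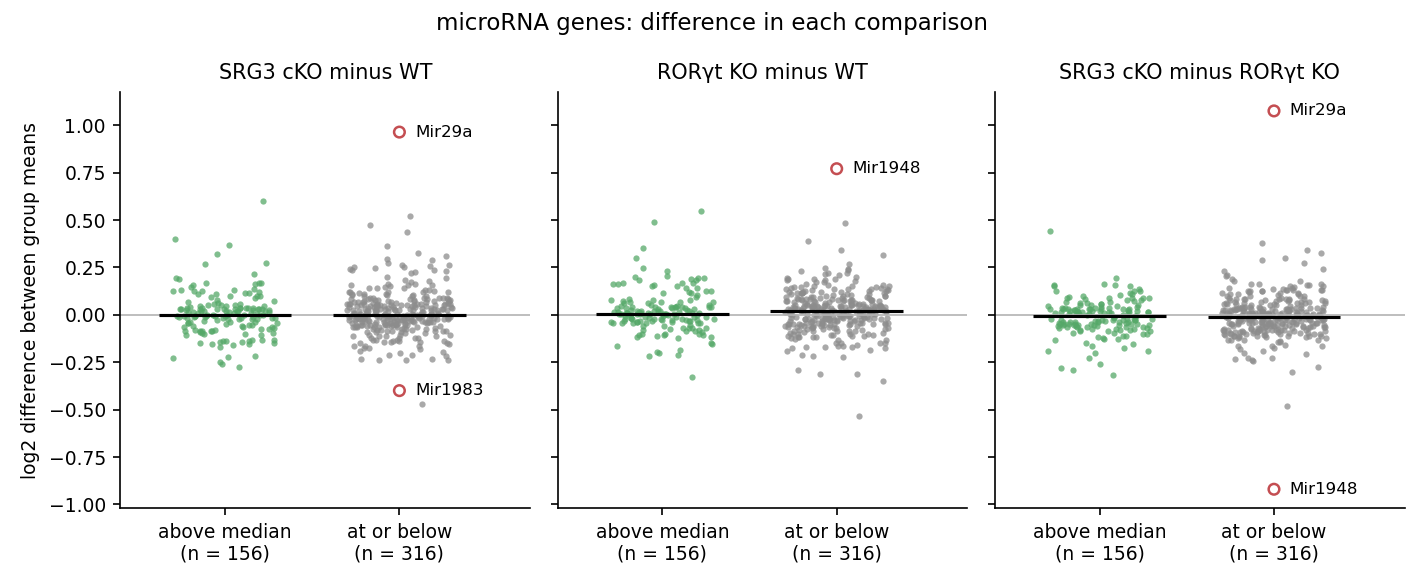
Log2 difference between group means for the 156 microRNA genes above the level and the 316 others, in 3 comparisons, with a black line at each median and a red circle on each gene that passed an adjusted p of 0.05. No gene above the level carries a circle, and the circles mark Mir29a, Mir1983 and Mir1948 among the others.

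Comparing RORγt KO with WT asks which of these genes depend on the Th17 transcription factor. Again 0 of the 156 passed in limma's fit, against 1.04% of all genes, and the lowest adjusted p was 0.0788. At an unadjusted p under 0.05 there were 20 genes, 15 higher and 5 lower, or 12.8% against 12.7% of all genes (6.08% higher, 6.64% lower). Groups did not overlap in 19 genes (14 higher, 5 lower), or 12.2%, where 14.3% of all genes showed no overlap (6.9% higher, 7.35% lower). Of all genes above the level, 18.9% showed no overlap (8.78% higher, 10.1% lower), and 17.5% had an unadjusted p under 0.05. The median difference was 0.01, against -0.00 over all genes, with a range of -0.33 to 0.55, and 155 of the 156 intervals lay within 1 log2 unit of 0.

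Mir1198, within Gripap1 and chosen after its values were seen, had the lowest adjusted p. It had 9.35, 9.39 and 9.30 in SRG3 cKO, 9.44, 9.43 and 9.35 in RORγt KO, and 9.20, 9.24 and 9.22 in WT arrays. Arrays of both mutants exceeded every WT array, though by little. The difference from WT was 0.18 in RORγt KO (0.09 to 0.28, adjusted p = 0.0788) and 0.12 in SRG3 cKO (0.03 to 0.22, adjusted p = 0.294). The host Gripap1 differed from WT by -0.01 in RORγt KO and 0.02 in SRG3 cKO. Where only genes above the level were tested, the adjusted p of Mir1198 in RORγt KO was 0.0398.

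Mir5104 differed from WT by 0.49 in RORγt KO (-0.03 to 1.01, adjusted p = 0.428). The lowest difference was that of Mir1949, with 9.62, 10.04 and 9.89 in SRG3 cKO, 9.57, 9.61 and 10.03 in RORγt KO, and 9.93, 10.18 and 10.08 in WT arrays. The RORγt KO and WT arrays overlapped, and the difference was -0.33 (adjusted p = 0.36). Mir709 had 7.99, 7.92 and 7.88 in SRG3 cKO, 8.02, 7.96 and 8.05 in RORγt KO, and 7.84, 7.87 and 7.58 in WT arrays. Arrays of both mutants lay above all WT arrays, and the RORγt KO difference was 0.25 (adjusted p = 0.203). Mir212, chosen after its values were seen, had 7.60, 7.64 and 7.57 in SRG3 cKO, 7.77, 7.74 and 7.70 in RORγt KO, and 7.78, 7.44 and 7.50 in WT arrays. WT array 1 stood as high as the RORγt KO arrays, and without it the difference between RORγt KO and WT was 0.27 with an adjusted p of 0.0327.

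**Figure D3:**
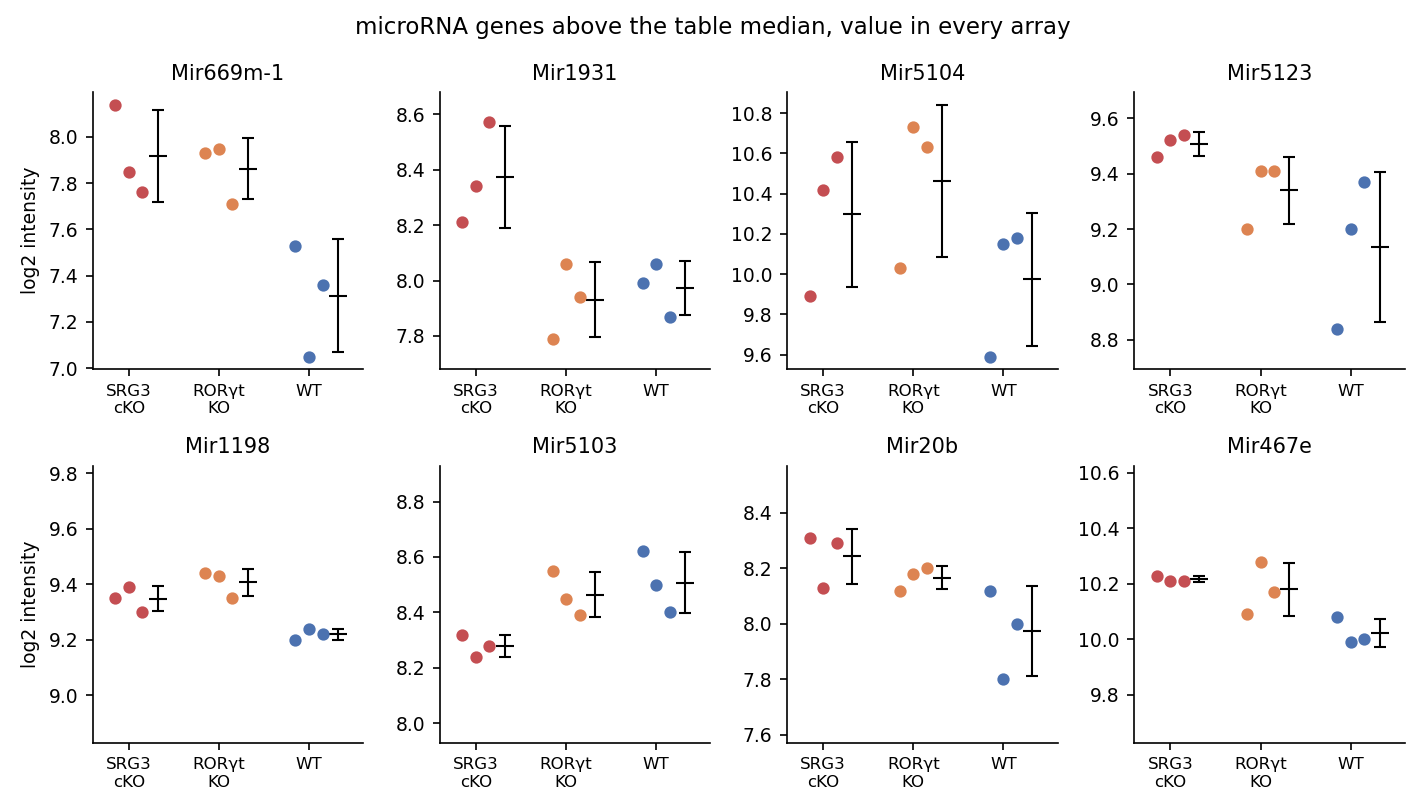
Log2 intensity of 8 microRNA genes in each array, with SRG3 cKO on the left, then RORγt KO, then WT; points are arrays 1 to 3 and bars are means with SD. For Mir1931 the SRG3 cKO arrays lie above those of both other groups. For Mir669m-1 and Mir1198 the arrays of both mutants lie above the WT arrays. None of these differences passed the threshold for the adjusted p in limma's main fit.

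The direct comparison of SRG3 cKO with RORγt KO sets the means of both mutants against each other. The WT arrays do not enter this difference, but they enter the spread behind its intervals and p-values. Of the 156 genes 0 passed in limma's fit, against 1.28% of all genes, and the lowest adjusted p was 0.0815, that of Mir1931. At an unadjusted p under 0.05 there were 8 genes, 2 higher and 6 lower, or 5.13% against 11.1% of all genes (5.57% higher, 5.5% lower). Groups did not overlap in 15 genes (5 higher, 10 lower), or 9.62%, where 14.6% of all genes showed no overlap (7.79% higher, 6.82% lower). Of all genes above the level, 19.5% showed no overlap (12.1% higher, 7.42% lower), and 14.4% had an unadjusted p under 0.05. The median difference was -0.01 with a range of -0.32 to 0.44. For Mir1931 the adjusted p was 0.0409 with weights for each array and 0.0433 where only genes above the level were tested. Mir666 had the lowest difference, -0.32 (-0.56 to -0.08, adjusted p = 0.284), and Mir3473c, within the TNF receptor adaptor gene Traf5, followed with -0.28 (adjusted p = 0.231).

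Both mutants were set against the same WT arrays, so their differences from WT share those arrays. Mir3085, also chosen after its values were seen, is an example of values on opposite sides of WT, with 8.05, 8.02 and 7.99 in SRG3 cKO, 8.20, 8.15 and 8.10 in RORγt KO, and 8.08, 8.09 and 8.08 in WT arrays. None of the 3 groups overlapped another, but the differences were small, and the one between the mutants was -0.13 (adjusted p = 0.197). The width of the intervals followed the spread within groups, after limma moved each gene's spread towards a value shared by all genes. The SD within groups had a median of 0.0926 over the 156 genes and 0.102 over the other microRNA genes, against 0.0645 over all genes above the level. Mir101c had the highest SD, 0.414, with 7.57, 6.61 and 7.02 in SRG3 cKO, 7.68, 7.30 and 6.99 in RORγt KO, and 7.66, 7.05 and 6.91 in WT arrays. Array 1 was the highest in each group, and a difference of -0.26 between the mutants had an interval from -0.86 to 0.35. Mir99b had the lowest SD, 0.0130, and its SRG3 cKO difference from WT was -0.01 (-0.09 to 0.06).

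A list of 51 microRNA genes known in T cells was read across the arrays, of which 30 were measured by a probe set of their own and 12 of these are among the 156 genes. None of the 12 passed in any comparison (0 of 12 each), and their differences lay between -0.16 and 0.17 in SRG3 cKO against WT, -0.17 and 0.17 in RORγt KO against WT, and -0.11 and 0.15 between the mutants. The intervals of all 12 together ran from -0.34 to 0.32, from -0.38 to 0.34 and from -0.26 to 0.36. Larger differences than these bounds lay outside every interval.

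Mir142, whose product is abundant in blood cells, had 8.76, 8.63 and 8.76 in SRG3 cKO, 8.84, 8.79 and 8.61 in RORγt KO, and 8.85, 8.76 and 8.76 in WT arrays. The groups overlapped, and the differences from WT were -0.07 (-0.22 to 0.07) in SRG3 cKO and -0.04 (-0.19 to 0.10) in RORγt KO. Mir210, which responds to low oxygen, had 9.55, 9.53 and 9.46 in SRG3 cKO, 9.59, 9.67 and 9.62 in RORγt KO, and 9.67, 9.44 and 9.41 in WT arrays. Its SRG3 cKO arrays lay below all RORγt KO arrays by a mean of 0.11, while the WT arrays spanned both. Mir27a, of the miR-23-27-24 cluster that restrains several T helper programmes, had 7.71, 7.85 and 8.01 in SRG3 cKO, 7.51, 8.08 and 7.83 in RORγt KO, and 7.76, 7.77 and 7.96 in WT arrays. These groups overlapped too, and the SRG3 cKO difference from WT was 0.03 (-0.27 to 0.32).

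**Figure D4:**
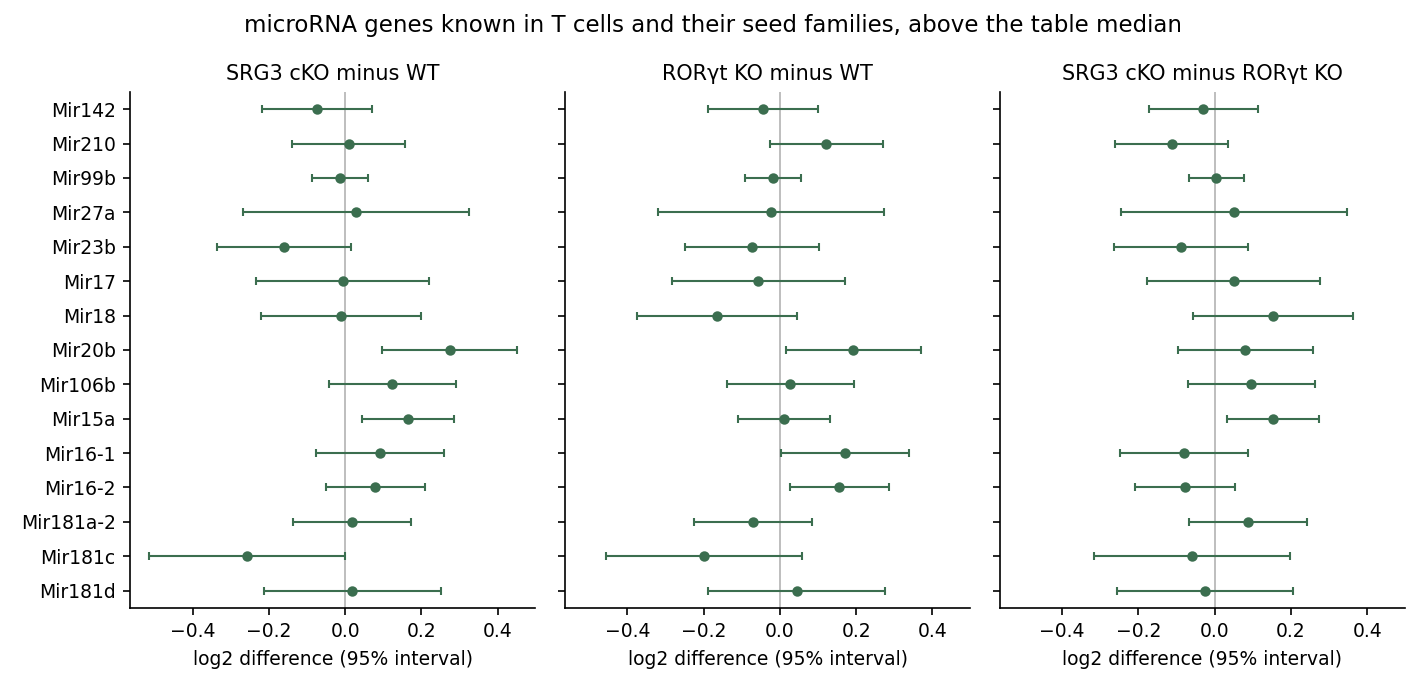
Log2 differences with 95% intervals for 15 microRNA genes known in T cells or sharing a seed with them, in 3 comparisons. Most intervals hold 0, and none of the genes passed an adjusted p of 0.05.

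The seeds printed above group the genes by the targets they can share. Among the 156 genes, 25 shared a seed with another of them, in 13 seeds, and 5 seeds were shared by 3 genes each. In the miR-17 family, which promotes T cell proliferation, Mir20b had 8.31, 8.13 and 8.29 in SRG3 cKO, 8.12, 8.18 and 8.20 in RORγt KO, and 8.12, 7.80 and 8.0 in WT arrays. The SRG3 cKO arrays lay above all WT arrays, and the lowest RORγt KO array lay only just above the highest WT array. Its difference from WT was 0.27 in SRG3 cKO (0.10 to 0.45, adjusted p = 0.226) and 0.19 in RORγt KO (0.02 to 0.37, adjusted p = 0.351). Mir17 had 7.63, 7.41 and 7.20 in SRG3 cKO, 7.20, 7.48 and 7.41 in RORγt KO, and 7.43, 7.43 and 7.41 in WT arrays. Its WT arrays were nearly equal and lay inside the spread of both mutants, with an SRG3 cKO difference of -0.01 (-0.23 to 0.22). Mir106b, within the replication gene Mcm7, differed by 0.12 in SRG3 cKO (-0.04 to 0.29) and by 0.03 in RORγt KO.

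The miR-15 and miR-16 genes restrain the cell cycle. Mir15a had 8.76, 8.69 and 8.71 in SRG3 cKO, 8.62, 8.46 and 8.63 in RORγt KO, and 8.49, 8.57 and 8.61 in WT arrays. SRG3 cKO arrays lay above all others, by 0.17 against WT (0.04 to 0.29, adjusted p = 0.292) and by 0.15 against RORγt KO (0.03 to 0.27, adjusted p = 0.308). Mir16-1, its neighbour in the noncoding gene Dleu2, differed from WT by 0.09 in SRG3 cKO and 0.17 in RORγt KO. Mir16-2, which gives the same mature sequence from another chromosome, differed by 0.08 and 0.16. In this family all 3 genes had a positive difference from WT in both mutants, though that of Mir15a in RORγt KO was only 0.01, and 0 of 3 passed.

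The miR-181 family tunes T cell receptor signalling. Mir181c had 8.07, 8.45 and 8.46 in SRG3 cKO, 8.43, 8.19 and 8.54 in RORγt KO, and 8.50, 8.62 and 8.64 in WT arrays. SRG3 cKO arrays lay below all WT arrays, with a difference of -0.26 (-0.52 to -0.00, adjusted p = 0.446). Mir181d, its neighbour on chromosome 8, had 9.20, 9.12 and 9.36 in SRG3 cKO, 9.24, 9.08 and 9.45 in RORγt KO, and 9.24, 9.06 and 9.34 in WT arrays. These groups overlapped throughout, and the SRG3 cKO difference was 0.02. Mir181a-2 differed by 0.02 in SRG3 cKO and -0.07 in RORγt KO. The 3 genes with the seed of miR-34, chosen after their values were seen, are the p53-induced Mir34a with Mir34b and Mir449a. They differed from WT by 0.04, -0.04 and -0.01 in SRG3 cKO and by 0.06, -0.07 and -0.03 in RORγt KO.

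Genes that lie together were then read as groups. The intron of Sfmbt2 holds a large array of near-identical microRNA genes of the miR-466, miR-467 and miR-669 families, and 5 of them are among the 156. This grouping was chosen after the values were seen, so it has no test. All 5 had a positive difference from WT in both mutants, with a median of 0.19 in SRG3 cKO and 0.30 in RORγt KO, and of 0.03 between the mutants. Of the 5, 0 passed, and 3 in each mutant lay above WT without overlap. Of all genes, 7.04% in SRG3 cKO and 6.9% in RORγt KO did so, and of all genes above the level 10.3% and 8.78%. Mir467e had 10.23, 10.21 and 10.21 in SRG3 cKO, 10.09, 10.28 and 10.17 in RORγt KO, and 10.08, 9.99 and 10.00 in WT arrays. Both mutants lay above WT, the lowest RORγt KO array only just. Mir466h had 7.37, 7.45 and 7.55 in SRG3 cKO, 7.40, 7.77 and 7.44 in RORγt KO, and 7.40, 7.13 and 7.02 in WT arrays, with WT array 1 close to the mutants. It counts among the 3 in RORγt KO, though its lowest RORγt KO array and highest WT array are equal at the digits printed.

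Over the 17 other microRNA genes of this intron, which lay at or below the level, the median difference from WT was 0.16 in SRG3 cKO and 0.04 in RORγt KO, and 12 of 17 were positive in each. Of these 17, 0 passed, and 5 in SRG3 cKO and 0 in RORγt KO lay above WT without overlap. The shares of all genes were 7.04% and 6.9%, and whether the mutants differ in this count was not tested. Near-identical copies can bind each other's probes, so values of single genes in this cluster are uncertain. Sfmbt2 itself, a Polycomb group gene, had 6.86, 6.86 and 6.80 in SRG3 cKO, 6.55, 6.63 and 6.46 in RORγt KO, and 6.55, 6.63 and 6.63 in WT arrays. SRG3 cKO arrays lay above all others. Sfmbt2 was higher in SRG3 cKO than in RORγt KO by 0.29 (adjusted p = 0.0240), a call kept in 4 of 9 fits with 1 array left out and lost at an adjusted p of up to 0.107 without SRG3 cKO array 2, and the difference from WT was 0.24 (adjusted p = 0.0976).

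The chromosome 12 cluster, an imprinted block expressed mainly in embryo and brain, supplied 13 of the 156 genes. Their median difference was -0.04 in SRG3 cKO and -0.03 in RORγt KO against WT, with ranges of -0.27 to 0.06 and -0.22 to 0.05, and 0 of 13 passed. Host genes were measured for 65 of the 156 genes (62 different hosts). The difference of a microRNA gene and of its host had the same sign in 34 of 65 in SRG3 cKO against WT, 38 in RORγt KO against WT and 35 between the mutants. Across genes, which are not independent replicates and share arrays with their hosts, Pearson's r was 0.31, 0.33 and 0.24 and Spearman's rho was 0.17, 0.23 and 0.20. Of the 62 hosts, 0 passed in SRG3 cKO against WT, 1 in RORγt KO against WT and 1 between the mutants. The shares of all genes were 0.523%, 1.04% and 1.28%. Each of these calls was of Anxa2, a membrane-binding protein gene and the host of Mir3109, chosen after its values were seen. Anxa2 had 9.21, 9.47 and 9.56 in SRG3 cKO, 10.00, 10.21 and 9.94 in RORγt KO, and 9.61, 9.39 and 9.17 in WT arrays. It rose in RORγt KO by 0.66 (SE 0.12, adjusted p = 0.0411), a call kept in 2 of 9 fits with 1 array left out, where the adjusted p was up to 0.182 without RORγt KO array 2. In SRG3 cKO against RORγt KO, Anxa2 differed by -0.64 (adjusted p = 0.0411, 9 of 18 settings, up to 0.164). Mir3109 differed from WT by 0.06 in RORγt KO.

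Genes that make and use microRNAs were read from 3 lists. Of the nuclear processing genes 11 of 13 were measured, of the cytoplasmic and Argonaute genes 12 of 14, and of the turnover genes 12 of 12, and Mov10 alone among them passed in any comparison. Mov10, an RNA helicase that binds Argonaute complexes and also restrains retroelements, had 8.55, 8.55 and 8.55 in SRG3 cKO, 8.83, 8.81 and 8.77 in RORγt KO, and 8.40, 8.20 and 8.27 in WT arrays. The 3 groups did not overlap, with RORγt KO highest. Mov10 rose in RORγt KO by 0.52 (SE 0.05, adjusted p = 0.00168), in all 18 settings tried. It was lower in SRG3 cKO than in RORγt KO by a log2 difference of -0.26 (adjusted p = 0.0436, passing in 11 of 18 settings and up to 0.157 in the others), and the SRG3 cKO difference from WT was 0.26 (adjusted p = 0.0654).

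The central processing enzymes did not pass. Drosha had 9.25, 9.25 and 9.25 in SRG3 cKO, 9.25, 9.10 and 9.22 in RORγt KO, and 9.24, 9.35 and 9.41 in WT arrays, with differences from WT of -0.09 and -0.14. Dicer1 had 9.29, 9.35 and 9.40 in SRG3 cKO, 9.24, 9.28 and 9.32 in RORγt KO, and 9.27, 9.44 and 9.41 in WT arrays, with differences of -0.02 and -0.09. Ago2, the slicing Argonaute, had 10.81, 10.76 and 10.80 in SRG3 cKO, 10.84, 10.89 and 10.77 in RORγt KO, and 10.81, 10.80 and 10.82 in WT arrays. The differences of Ago2 were -0.02 and 0.03.

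Published targets of T cell microRNA families were read from 7 lists, with genes that belong to many other pathways as well. The lists were chosen with earlier results of these data known, so their counts are descriptions and do not test the families. Of 14 measured targets of the miR-17-92 family, 3 rose in RORγt KO and 0 fell. Of all genes 1.04% passed (0.694% higher), and of those above the level 1.67% (1.13% higher). In SRG3 cKO against WT 0 of the 14 passed, and between the mutants Tnfaip3 was higher and Bcl2l11 lower in SRG3 cKO, where 1.28% of all genes passed. Bcl2l11, which encodes the death protein Bim, had 8.30, 8.06 and 8.30 in SRG3 cKO, 8.71, 8.94 and 8.93 in RORγt KO, and 8.08, 8.06 and 8.33 in WT arrays. RORγt KO arrays lay above all others, with a rise of 0.70 against WT (SE 0.10, adjusted p = 0.0140, passing in 15 of 18 settings and up to 0.0764). The others were Hif1a, the oxygen-sensing factor, at 0.26 (adjusted p = 0.0421, 8 of 18 settings, up to 0.177) and the nuclear receptor gene Rora at 0.36, whose adjusted p lay just under the threshold (7 of 18 settings, up to 0.212).

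Of 14 measured miR-155 targets, Trp53inp1 had 9.72, 9.68 and 9.51 in SRG3 cKO, 9.56, 9.93 and 9.51 in RORγt KO, and 8.78, 9.05 and 8.83 in WT arrays. Both mutants lay above WT, and Trp53inp1, a p53 target that promotes cell death and autophagy, rose by 0.75 in SRG3 cKO (adjusted p = 0.0288, 10 of 18 settings, up to 0.140) and by 0.78 in RORγt KO (adjusted p = 0.0185, 15 of 18 settings, up to 0.0928). Ifngr1, the interferon-γ receptor chain, rose in RORγt KO by 0.70 (adjusted p = 0.0392, 10 of 18 settings, up to 0.151). Among 7 measured miR-181 targets the phosphatase gene Dusp6 rose in RORγt KO by 0.59 (adjusted p = 0.0287, 9 of 18 settings, up to 0.132). None of the 7 measured miR-21 targets and none of the 5 measured miR-146 targets passed in any comparison (0 of 7 and 0 of 5). Of the 9 measured miR-23-27-24 targets, 0 passed against WT in either mutant, and between the mutants Tnfaip3 alone passed. The share of all genes that passed was 0.523% in SRG3 cKO and 1.04% in RORγt KO against WT, and 1.28% between the mutants.

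Mir29a, below the level with a mean of 6.59, differed more between genotypes than any of the 156 genes. It had 7.09, 7.55 and 7.17 in SRG3 cKO, 5.83, 6.42 and 6.33 in RORγt KO, and 6.40, 6.27 and 6.24 in WT arrays. The SRG3 cKO arrays lay above all others, and RORγt KO overlapped WT. Mir29a rose in SRG3 cKO by 0.96 against WT (0.61 to 1.31, adjusted p = 0.0378) and was higher than in RORγt KO by 1.08 (0.73 to 1.43, adjusted p = 0.0109). The call against WT was kept in 2 of 9 fits with 1 array left out: it was lost without any of the SRG3 cKO and WT arrays and without RORγt KO array 3, at an adjusted p of up to 0.163 without WT array 3. The call against RORγt KO was kept in 9 of 9 such fits and in 16 of 17 settings, with an adjusted p of up to 0.0717. Mir29b-1, its neighbour on chromosome 6 with the same seed, had 4.61, 4.82 and 4.27 in SRG3 cKO, 4.16, 4.34 and 4.07 in RORγt KO, and 4.45, 3.94 and 4.23 in WT arrays. Its groups overlapped, with a difference from WT of 0.36 in SRG3 cKO (0.02 to 0.70, adjusted p = 0.425).

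Targets of miR-29, which represses interferon-γ and its inducers in T cells, were measured in 22 of 24 cases. In SRG3 cKO and in RORγt KO against WT 0 of 22 passed, with medians of -0.01 and -0.00. Between the mutants, where 1.28% of all genes passed, 1 was higher in SRG3 cKO, the NF-κB inhibitor gene Tnfaip3, by 0.43 (SE 0.08, adjusted p = 0.0420, 10 of 18 settings, up to 0.156). Tnfaip3 is the same gene that passed in the miR-17-92 and miR-23-27-24 lists. Tnfaip3 had 10.08, 9.82 and 9.73 in SRG3 cKO, 9.49, 9.42 and 9.41 in RORγt KO, and 9.56, 9.43 and 9.39 in WT arrays.

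In the 316 genes at or below the level, 2 passed in SRG3 cKO against WT, 1 in RORγt KO against WT and 2 between the mutants. These are 0.633%, 0.316% and 0.633% of the 316, near or below the 0.523%, 1.04% and 1.28% of all genes. Besides Mir29a they were Mir1983 and Mir1948, named after their values were seen. Mir1983 had 6.10, 5.95 and 5.85 in SRG3 cKO, 6.10, 5.97 and 6.10 in RORγt KO, and 6.32, 6.46 and 6.31 in WT arrays. Both mutants lay below WT, and in SRG3 cKO Mir1983 fell by 0.40 on the log2 scale (adjusted p = 0.0481), a call kept in 4 of 17 settings and in 0 of 9 fits with 1 array left out, where the adjusted p was up to 0.168 without WT array 2. Mir1948 had 5.89, 6.17 and 6.13 in SRG3 cKO, 6.91, 7.30 and 6.74 in RORγt KO, and 6.34, 6.29 and 6.01 in WT arrays. RORγt KO arrays lay above all others, by 0.77 against WT (0.45 to 1.09, adjusted p = 0.0397, 9 of 17 settings, up to 0.147 without WT array 3).

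**Figure D5:**
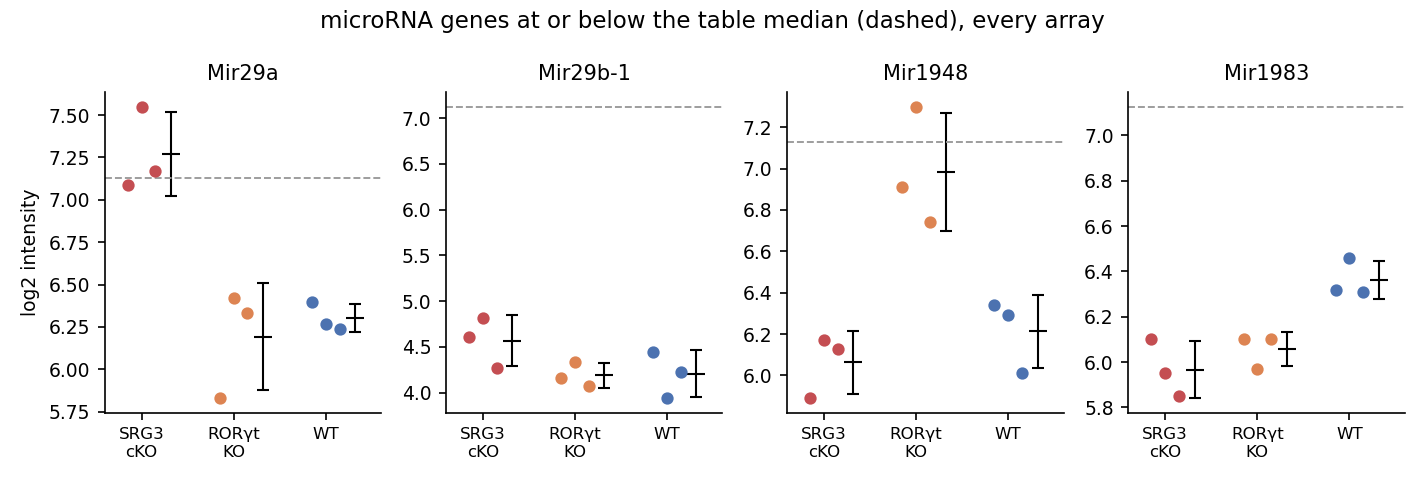
Log2 intensity of Mir29a, Mir29b-1, Mir1948 and Mir1983 in each array, SRG3 cKO on the left, then RORγt KO, then WT, with means and SD and a dashed line at 7.13, the median of all values. Mir29a exceeds the line in SRG3 cKO arrays 2 and 3, and Mir1948 exceeds it in RORγt KO array 2.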

How the data were processed

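RNA of 9 Th17 cultures was measured on GeneChip arrays with 41345 probe sets. The deposited values are log2 probe set intensities, per the labels; background correction, summarization and normalization are not given in the sources used here. No sample column was left unused (0). Arrays have no read depth, so their number, 3 per group, limits precision.

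Probe sets with several symbols (1814) or none (16010) were left out. Symbols were updated by gene ID with the RefSeq table (23328 matched), and the highest-mean probe set was taken for the 1082 genes with several. A single limma fit (version 3.58.1, R 4.3.3) took all 9 arrays, with Benjamini-Hochberg adjustment over 22180 genes, a threshold of 0.05 and 95% intervals. The fit was tested on simulated data. Settings counted in the text are the main one and 17 alternatives: normalization, centring, dim filter, probe set rule, variance model, array weights, arrays fitted, replicate block and leaving out each array. A gene below the median has no value under the dim filter.

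Genes were named by a rule: the largest differences, the highest means, those nearest the threshold, and listed T cell microRNA, processing and target genes. Others, among them genes of low p-value and microRNA genes below the level that passed, were chosen after their values were seen, as the text says beside them. The members and lists were chosen with earlier results of these data known. The main fit used group means only, with no pairing, and the replicate block was an alternative. Same-numbered arrays of SRG3 cKO and WT deviated together (r = 0.287, 0.186 and 0.116), so for the block alone they were taken as paired from the data. RORγt KO with WT (0.215, -0.00527 and 0.186) and SRG3 cKO with RORγt KO (0.223, -0.00544 and 0.137) were not taken as paired.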

Additional observations from a re-analysis of the deposited data

Results flagged for a closer look

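The difference of each mutant from WT was itself compared between the mutants, which is the direct comparison. Mir29a stood out by a log2 difference of 1.08 between SRG3 cKO and RORγt KO (adjusted p = 0.0109 in limma), with all 3 SRG3 cKO arrays above all 3 RORγt KO arrays. Mir1948 stood out by -0.92 (adjusted p = 0.0145), with all 3 SRG3 cKO arrays below all 3 RORγt KO arrays. Both genes lie below the level that defines the 156 genes. The call of Mir29a passed in 16 of 17 settings (adjusted p up to 0.0717), and that of Mir1948 in 13 of 17. Without SRG3 cKO array 1 the adjusted p of Mir1948 was 0.0647, without SRG3 cKO array 3 it was 0.0542, and without RORγt KO array 1 it was 0.0515.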

How the results depend on the processing

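Of 7731 single values under the alternatives, 7539 stayed on the same side of the threshold, 169 lost a call, 23 gained one and 0 called values changed sign. Of the 7539, 345 that passed neither way changed sign. For the named genes among the 156, 8 of 3213 values passed. At the 75th percentile of all values in place of the median, 65 genes were kept, and leaving out 1 array gave 155 to 158. With the replicate block, 2 of the 156 genes passed in SRG3 cKO against WT (Mir669m-1 and Mir5104) and 2 in RORγt KO against WT, where these groups were not taken as paired (Mir5104 at an adjusted p of 0.00706 and Mir669m-1 at 0.0420). Where only genes above the level were tested, 1 passed in RORγt KO against WT (Mir1198) and 1 between the mutants (Mir1931), which array weights also gave (1). Leaving out 1 array gave 0 to 1 in RORγt KO against WT.

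All genes passing in SRG3 cKO against WT numbered 196 with the dim filter, 13 with only the 6 arrays compared, 195 with the replicate block and 18 to 87 with 1 array left out (18 without SRG3 cKO array 1). In RORγt KO against WT they numbered 348, 43, 374 and 45 to 322 (45 without WT array 2). Between the mutants they numbered 142 with 6 arrays and 138 to 261 with 1 array left out. Processing and turnover genes in SRG3 cKO against WT numbered 2 with the dim filter, 1 with array weights, 1 with the block and 0 to 1 with 1 array left out, and between the mutants 2, 2 with the block, and 0 to 1. Published targets in SRG3 cKO against WT numbered 2 with the dim filter, 0 with 6 arrays, 4 with the block and 0 to 1. In RORγt KO they numbered 3 with the mean of probe sets, 0 with 6 arrays, 13 with the block and 1 to 7. Between the mutants they numbered 1 with 6 arrays and 0 to 2. Fits on 6 arrays or with 1 left out have fewer arrays, and the dim filter has fewer genes; for the other settings the cause was not tested. Signal over background was not measured here.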

Other observations

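A further 136 probe sets carry a microRNA symbol together with other symbols, so no gene can be named from them, and 70 of them averaged above the level. They were added to the fit after seeing the data. In SRG3 cKO against WT 0 of 136 passed an adjusted p of 0.05 in limma, where 0.523% of all genes did. An unadjusted p under 0.05 was reached by 18, against 11.2% of all genes, with differences from -0.28 to 0.36. In RORγt KO against WT 0 passed, where 1.04% of all genes did. An unadjusted p under 0.05 was reached by 7, against 12.7% of all genes, with differences from -0.31 to 0.39. Between the mutants 1 was higher in SRG3 cKO (adjusted p = 0.00696) and 0 were lower, where 1.28% of all genes passed. An unadjusted p under 0.05 was reached by 10, against 11.1% of all genes, with differences from -0.42 to 0.39.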
